A study of Mus musculus with 9 samples.

Results

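The Sall and Zic genes encode C2H2 zinc finger transcription factors, and 8 of them, Sall1, Sall2, Sall3, Sall4, Zic1, Zic2, Zic4 and Zic5, were taken by symbol from the 55471 genes counted in neonatal mouse muscle. They were selected on measured values, the low counts of Sall1 and Zic1 in 3 mutant mice, KO1, KO3 and KO5, so the levels of those mice are given for the members as a description without a test. The RNA came from the gastrocnemius, a calf muscle, at postnatal day 0 to 1, and was sequenced as 1 library per mouse. The mutant group held 5 Shank3Δ11(-/-) mice, homozygous for a loss of exon 11 of Shank3 and named KO1 to KO5. The control group held 4 Shank3(+/+) mice, named WT1 to WT4, and the labels give C57BL/6 for both groups, with no treatment named. The study's methods name C57BL/6JRj for the heterozygous matings that gave the mutant mice. The study's own analysis left out KO2 and KO4 for too few reads, so these mice were not used by the choice of the members. The question followed here is whether the paralogs of Sall1 and Zic1, and their neighbours on the chromosome, were low in the same mice.

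Sall proteins are the vertebrate relatives of Drosophila spalt. They bind DNA through pairs of zinc fingers spread along the protein, and a short stretch at their amino terminus recruits the NuRD complex, which removes acetyl groups from histones and remodels nucleosomes. Sall1 is known for its roles in the kidney and the limb, Sall4 for embryonic stem cells and the limb, and Sall2 for growth control in many tissues. Zic proteins are relatives of Drosophila odd-paired and share their finger domain with the Gli factors of Hedgehog signalling. They act in the neural tube, the neural crest and the somites, the blocks of mesoderm that give rise to trunk and limb muscle. Zic1 and Zic4 lie head to head, as do Zic2 and Zic5, and loss of the Zic1 and Zic4 pair is known from the cerebellar malformation of Dandy-Walker syndrome.

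Positions follow the M21 release of GENCODE on mm10, the build of the counts. Sall1 lies on chromosome 8 from 89027235 to 89044162 on the minus strand and Sall2 on chromosome 14 from 52311172 to 52328762 on the minus strand. Sall4 lies on chromosome 2 from 168748332 to 168767943. Zic1 lies on chromosome 9 from 91358058 to 91365810 on the minus strand, and Zic4 on the plus strand from 91362413 to 91389348. Their gene bodies therefore overlap by 3398 bp, with 60 bp exonic in both. Zic5 (chromosome 14, 122456795 to 122465677, minus strand) and Zic2 (122475435 to 122479852, plus strand) are 9757 bp apart. A read in the shared exonic stretch of Zic1 and Zic4 cannot be assigned without strand, and the sources used here do not say whether the counting used strand.

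The windows around the starts of Sall1, Zic1 and Zic4 are shown because these are the 3 members that were low together. They are from RefSeq, build GRCm38.p6, and run from 250 bases before a start to 50 bases after it. Of the 8 members 5 have a window in that table, and Sall1 has 3 windows, of which 2 are shown. Capitals mark GC boxes, the letters GGGCGG on either strand, which 35.7% of all 32851 windows of this length hold.
Sall1, chr8:89044113-89044412, minus strand: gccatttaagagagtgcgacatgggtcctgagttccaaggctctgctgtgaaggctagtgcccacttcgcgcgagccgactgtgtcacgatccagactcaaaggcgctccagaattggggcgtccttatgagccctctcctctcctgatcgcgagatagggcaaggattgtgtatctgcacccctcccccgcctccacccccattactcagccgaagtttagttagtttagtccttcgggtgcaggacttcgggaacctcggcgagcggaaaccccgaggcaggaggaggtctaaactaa
Sall1, chr8:89043463-89043762, minus strand: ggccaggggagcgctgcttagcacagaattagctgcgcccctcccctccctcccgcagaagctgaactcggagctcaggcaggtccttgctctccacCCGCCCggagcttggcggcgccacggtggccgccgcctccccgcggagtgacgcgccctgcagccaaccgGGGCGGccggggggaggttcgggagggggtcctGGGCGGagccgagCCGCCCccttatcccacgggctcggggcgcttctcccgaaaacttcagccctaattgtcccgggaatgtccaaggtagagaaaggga
Zic1, chr9:91365719-91366018, minus strand: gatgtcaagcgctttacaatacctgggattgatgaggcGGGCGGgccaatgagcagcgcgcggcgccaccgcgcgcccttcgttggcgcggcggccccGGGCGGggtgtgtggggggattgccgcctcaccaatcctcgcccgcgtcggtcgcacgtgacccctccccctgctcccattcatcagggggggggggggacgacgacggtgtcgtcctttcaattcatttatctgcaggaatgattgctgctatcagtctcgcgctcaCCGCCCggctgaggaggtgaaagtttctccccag
Zic4, chr9:91368722-91369021, plus strand: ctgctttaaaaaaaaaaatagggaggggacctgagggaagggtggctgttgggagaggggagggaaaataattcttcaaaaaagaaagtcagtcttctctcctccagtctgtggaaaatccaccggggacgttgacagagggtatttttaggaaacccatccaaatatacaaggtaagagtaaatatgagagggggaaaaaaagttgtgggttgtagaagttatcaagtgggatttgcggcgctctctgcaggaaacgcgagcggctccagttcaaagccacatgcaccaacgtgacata
The outermost Sall1 window holds 0 GC boxes and 18 CpG dinucleotides, and the second 4 GC boxes and 27 CpG. The Zic1 window holds 3 GC boxes and 31 CpG, with 65.3% G and C. The Zic4 window holds 0 GC boxes and 8 CpG, with 46.0% G and C, against medians of 7 CpG and 52.7% over all windows. The letters CCAAT occur 2 times in the Zic1 window and 0 times in the Zic4 window on either strand (37.4% of all windows hold them). The RefSeq starts of Zic1 and Zic4 are 3204 bp apart and point away from each other, so the windows of the pair do not overlap and differ in base composition.

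The coding sequences of Zic1 and Zic4 were also compared, because a read from one could be counted on the other where they are identical. The longest exact run shared by the coding sequences of Zic1 and Zic4 is 42 bases, and that of Zic1 and Zic2 is 35 bases. Both lie in the stretch that encodes zinc fingers. The windows below hold 120 bases of each M21 transcript with the shared run in capitals.
Zic1, chr9:91364209-91364328, minus strand: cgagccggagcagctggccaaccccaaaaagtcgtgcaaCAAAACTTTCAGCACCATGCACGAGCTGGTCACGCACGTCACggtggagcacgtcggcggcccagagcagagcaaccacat
Zic4, chr9:91379110-91379229, plus strand: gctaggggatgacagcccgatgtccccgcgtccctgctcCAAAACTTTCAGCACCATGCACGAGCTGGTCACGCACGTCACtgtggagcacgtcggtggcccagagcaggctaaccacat
The windows are identical at 88 of 120 positions. No other pair of the Zic genes in these data shares a longer coding run, and among Sall1, Sall2 and Sall4 the longest is 21 bases, between Sall1 and Sall4. Over all transcripts of a gene, 0% of the 50-base words of Sall1, Sall2, Sall3 and Zic2 occur in another gene, 0.723% of those of Zic1 and 4.18% of those of Zic4. The words of Zic4 are shared with Zic1 and with Gm37477, a predicted gene inside its body. In Sall4 7.64% and in Zic5 7.48% are shared, with predicted genes or other loci. The longest coding transcripts of M21 encode 1323 residues for Sall1, 1004 for Sall2, 447 for Zic1 and 341 for Zic4. A search for C2H2 fingers of classical spacing found 9 in Sall1, 7 in each of Sall2, Sall3 and Sall4, and 3 in each of the Zic proteins, where fingers of other spacing are not found by the search.

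Between 26444372 and 40471957 reads per mouse were counted on genes (median 31435732), with the lowest total in KO5 and the highest in KO4. KO2 was at 28211941, so neither mouse that the study left out for too few reads had the lowest total here. CPM below are counts relative to the TMM-scaled library total of each mouse, set over the 9 mice, and RPKM, used wherever genes are compared with each other, are CPM per kilobase of exons. Shank3 was counted at 29.3, 31.0 and 34.4 CPM in KO1, KO3 and KO5, at 25.7 CPM in KO2 and 35.0 CPM in KO4, and at 32.4 to 38.5 CPM in WT. Reads outside exon 11 enter these values, so they do not check the deletion. Markers of skeletal muscle summed to 58128 to 66780 CPM in WT and to 60195 to 64092 CPM in Shank3Δ11(-/-), led by Acta1, the skeletal actin, at a mean of 18842 CPM. Nothing in the labels says that the mice came from separate litters, so the spread between mice may include litter or dissection.

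Sall2 was the most abundant member per length, and Zic2, Sall4, Sall3 and Zic5 were near the limit of detection. In WT the level per length was 2.17 ± 0.163 RPKM (SD, n = 4) for Sall2, 1.41 ± 0.461 RPKM for Zic1, 0.341 ± 0.132 RPKM for Sall1 and 0.110 ± 0.0353 RPKM for Zic4. The WT mice of Sall2 (1.97 to 2.37 RPKM) overlapped those of Zic1 (1.06 to 2.08 RPKM), but Sall2 was above Zic1 within each of the 9 mice. Zic1 did not overlap Sall1 (0.222 to 0.510 RPKM), and Sall1 did not overlap Zic4 (0.0774 to 0.160 RPKM). Below them stood Zic2 at 0.0191 ± 0.00489 RPKM, Sall4 at 0.0150 ± 0.0147 RPKM, Sall3 at 0.00440 ± 0.00615 RPKM and Zic5 at 0.00324 ± 0.00374 RPKM. Among these 4 genes every neighbour in the order overlapped the next. In a bulk sample fewer cells of a type and less RNA per cell cannot be told apart, and this holds for every level given here.

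Sall1 was at 0.376 CPM in KO1, 0.315 CPM in KO3 and 0.228 CPM in KO5, from 12, 10 and 6 counts. In WT it was at 2.00, 2.69, 1.33 and 1.17 CPM in WT1 to WT4, from 65, 91, 39 and 36 counts. These 3 mutant mice stood at 20.9%, 17.5% and 12.7% of the WT mean, and the highest of them was below the lowest WT mouse. The mice outside the choice differed from each other. KO2 had 26 counts and 0.882 CPM, 49.1% of the WT mean and below every WT mouse, while KO4 had 92 counts and 2.42 CPM, 134% of the WT mean, rank 2 of the 9 mice. The 95% Poisson interval of KO2, 0.576 to 1.29 CPM, which covers counting error only, overlapped those of WT3 and WT4.

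Zic1 was at 2.82 CPM in KO1, 3.37 CPM in KO3 and 1.71 CPM in KO5, from 90, 107 and 45 counts. In WT it was at 6.06, 11.8, 6.62 and 7.54 CPM in WT1 to WT4, from 197, 401, 194 and 232 counts. KO1, KO3 and KO5 thus stood at 35.1%, 42.0% and 21.3% of the WT mean and did not overlap WT. KO2 was again between the groups, at 4.72 CPM and 58.9% of the WT mean, below every WT mouse. Its Poisson interval, 3.97 to 5.57 CPM, overlapped that of WT1, 5.24 to 6.97 CPM, and of no other WT mouse. KO4 was at 9.24 CPM, 115% of the WT mean and within the WT range. The mouse with the lowest Sall1 and Zic1 was KO5 and the mouse with the highest was WT2.

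Zic4, the neighbour of Zic1 on the opposite strand, was at 0.376 CPM in KO1, 0.692 CPM in KO3 and 0.569 CPM in KO5, from 12, 22 and 15 counts. In WT it was at 0.800, 1.65, 1.09 and 1.01 CPM in WT1 to WT4, from 26, 56, 32 and 31 counts. The 3 mutant mice were at 33.0% to 60.8% of the WT mean and below every WT mouse. KO3, the highest of them, was close to WT1, the lowest of WT. The Poisson intervals were 0.194 to 0.656 CPM in KO1, 0.434 to 1.05 CPM in KO3 and 0.319 to 0.939 CPM in KO5. All 3 overlapped that of WT1, 0.523 to 1.17 CPM. Those of KO3 and KO5 also overlapped those of WT3 and WT4, and none overlapped that of WT2. KO2 parted from its low Sall1 and Zic1 here: at 1.12 CPM it was at 98.4% of the WT mean, rank 3 of the 9 mice. KO4 was at 1.44 CPM, within the WT range, as for the other genes. Which WT mouse was lowest also differed, being WT4 for Sall1 and WT1 for Zic1 and Zic4.

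Sall2, the one paralog of Sall1 that passed the filter, was in no mutant mouse below the WT range. It was at 12.1 CPM in KO1, 11.5 CPM in KO3 and 10.9 CPM in KO5, and at 12.9, 11.9, 10.7 and 11.6 CPM in WT1 to WT4. The groups overlapped throughout, and the 9 mice stayed between 91.0% and 118% of the WT mean. KO2, which was low for Sall1, had the highest Sall2 of all mice at 13.8 CPM, and KO4 had 12.2 CPM. Sall1 made up 3.02%, 2.65% and 2.05% of the counts on Sall1 and Sall2 in KO1, KO3 and KO5, and 9.16% to 18.4% in WT. In KO2 it was 5.99% (exact 95% interval 3.95% to 8.65%) and in KO4 16.5% (13.5% to 19.8%).

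**Figure D1:**
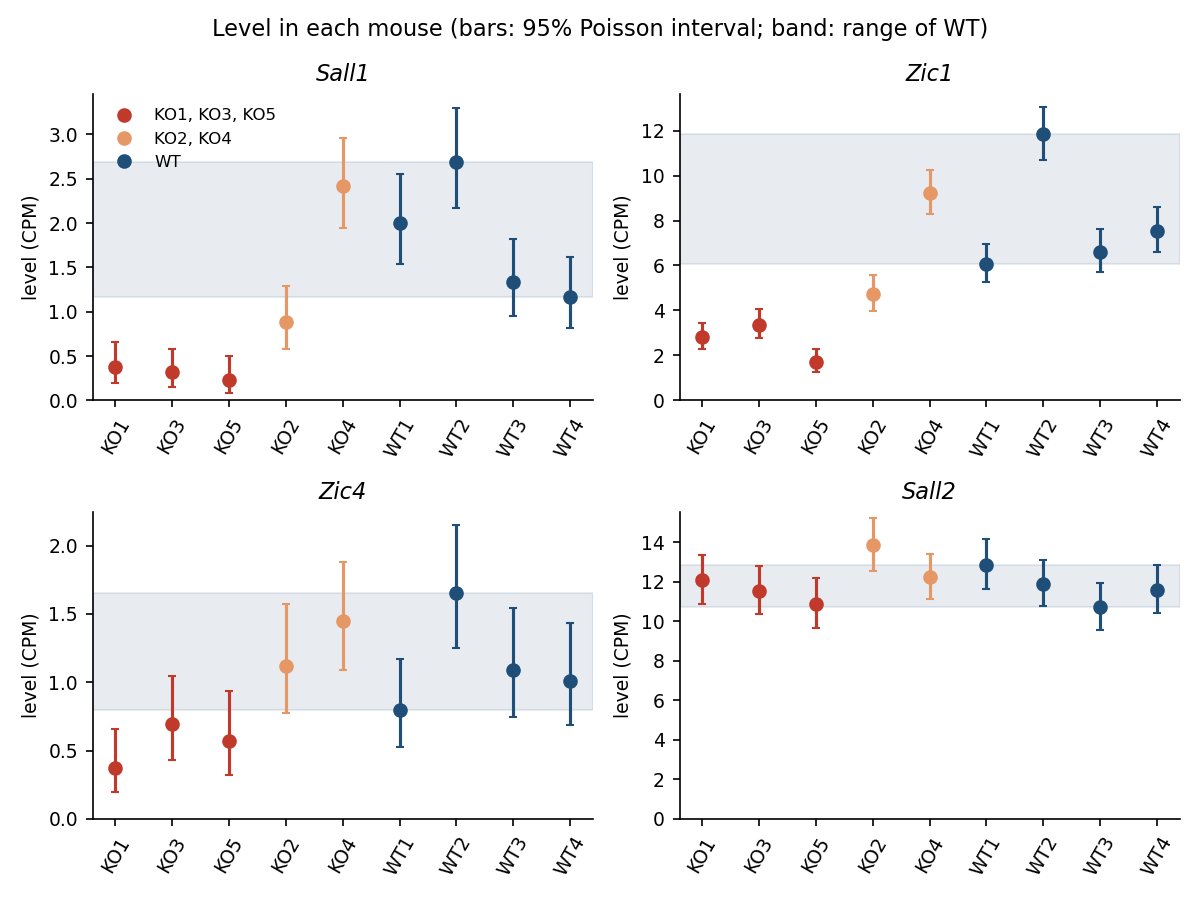
Level of Sall1, Zic1, Zic4 and Sall2 in CPM (y axis, linear, from 0) in each of 9 mice (x axis), with the 95% Poisson interval of each count as a bar and the range of the 4 WT mice as a band. KO1, KO3 and KO5 lie under the band for Sall1, Zic1 and Zic4 and inside it for Sall2, while KO2 lies under it for Sall1 (0.882 CPM) and Zic1 (4.72 CPM) only.

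**Figure D2:**
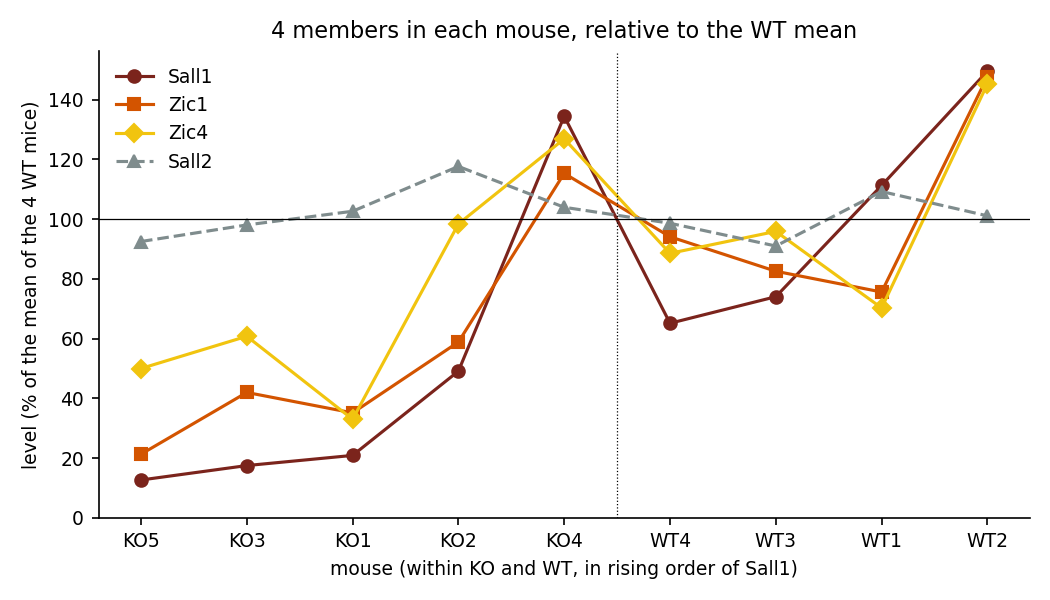
Level of 4 members as a percent of the mean of the 4 WT mice (y axis), with the mice ordered within each genotype by Sall1 (x axis) and lines that join the points of one gene. Sall1, Zic1 and Zic4 are at 60.8% or less in KO5, KO3 and KO1, part in KO2 (49.1%, 58.9% and 98.4%) and peak together in KO4 and WT2, while Sall2 stays near 100%.

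The remaining 4 members had too few counts to pass the filter on low counts and were given no fold change. Sall3, on chromosome 18, had 7 counts in KO2, 1 in KO4, 1 in WT3 and 3 in WT4 and 0 in the other mice. A count of 0 over KO1, KO3 and KO5 allows up to 0.0333 CPM (3 counts over the group), which the summed WT level of 0.0316 CPM does not pass. Sall4 had 5 counts in KO1 and 4 in KO5, 4 in WT1, 6 in WT2 and 1 in WT4, and 0 in KO2, KO3, KO4 and WT3. Zic2 had 8, 3, 2, 7 and 0 counts in KO1 to KO5 and 2, 2, 1 and 2 in WT1 to WT4. KO1, whose Zic1 was at 35.1% of the WT mean, thus had the most Zic2 counts of all mice, and its interval of 0.108 to 0.493 CPM overlapped all 4 WT intervals. Zic5 had 1 count in KO2, 2 in KO4, 1 in WT1 and 1 in WT4 and 0 in the other 5 mice. Whether Sall3, Sall4, Zic2 or Zic5 was lower in KO1, KO3 and KO5 was not detectable at this depth.

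All contrasts were fitted over all genes with edgeR's quasi-likelihood model. In KO1, KO3 and KO5 against WT the fitted log2 fold change was -2.54 (SE 0.38) for Sall1, -1.61 (SE 0.29) for Zic1, -1.07 (SE 0.35) for Zic4 and -0.04 (SE 0.12) for Sall2. This is 5.80-fold lower for Sall1, 3.05-fold lower for Zic1 and 2.10-fold lower for Zic4. Of the 4 members that passed the filter, 3 had every mutant mouse below every WT mouse, as did 284 of the 21809 genes tested (1.3%),. By the study's criterion, p below 0.05 with an FDR below 25%, edgeR called 0 of 21809 genes (0.0%) in this contrast, with a lowest FDR of 0.881 and 453 genes at an unadjusted p below 0.05. DESeq2 called 6 genes, Sall1 and Zic1 among them, and limma-voom 0. Sall1 and Zic1 were also among the 9 genes called with the replicate number as a block, and Sall1 was the 1 gene called with no filter on low counts. In the block fit only KO1, KO3, WT1 and WT3 set the fold change, since KO5, WT2 and WT4 have no mouse of the other genotype under their number. Nothing is read from these counts in either direction, because the contrast chose the members.

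KO2 and KO4 were not used in choosing the members and were compared with the same 4 WT mice. None of the 4 members tested passed edgeR's test in these mice, or a 2-sided exact permutation test of log2 CPM, whose smallest possible p is 0.133 for 2 against 4 mice. The log2 fold change of Sall1 was -0.11 (SE 0.45, edgeR p = 0.809, FDR = 1.00, exact permutation p = 0.667), with an approximate 95% interval of -0.997 to 0.773. For Zic1 it was -0.20 (SE 0.33, edgeR p = 0.570, FDR = 1.00, exact permutation p = 0.667), with an interval of -0.846 to 0.455. The means hide that KO2 was below and KO4 within the WT range for both genes, and without KO2 the fold changes turned positive, to 0.42 for Sall1 and 0.21 for Zic1. They did so without WT2 as well (0.15 and 0.06), and without KO4 they were -1.02 and -0.76. Zic4 was at 0.17 (SE 0.35, edgeR p = 0.627, FDR = 1.00, exact permutation p = 0.667) and Sall2 at 0.15 (SE 0.16, edgeR p = 0.376, FDR = 1.00, exact permutation p = 0.267). Without KO4 the value of Zic4 was -0.017. The intervals of the log2 fold change were -0.50 to 0.85 for Zic4 and -0.16 to 0.46 for Sall2. Over all genes 4 of 22239 (0.018%) were called and 259 (1.16%) had an unadjusted p below 0.05, and 0 members were among them.

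With all 5 Shank3Δ11(-/-) mice against WT, the comparison that the labels give, the log2 fold change was -1.05 (SE 0.59) for Sall1, -0.86 (SE 0.41) for Zic1, -0.43 (SE 0.37) for Zic4 and 0.04 (SE 0.11) for Sall2. These mice include those that chose the members, so the values are again a description. They depended on single mice: without KO4 they were -1.99 for Sall1, -1.35 for Zic1 and -0.73 for Zic4, and without WT2 -0.79, -0.615 and -0.19. Without KO1 Zic4 was at -0.24. For Sall1 and Zic1 4 of 5 mutant mice were below every WT mouse, for Zic4 3 of 5 and for Sall2 0 of 5. In this contrast 0 of 21735 genes (0.0%) were called, 442 had an unadjusted p below 0.05, DESeq2 called 7 and limma-voom 0. The SE of Sall1 rose from 0.38 to 0.59 when KO2 and KO4 were added, and the mutant mice then ranged from 0.228 to 2.42 CPM.

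**Figure D3:**
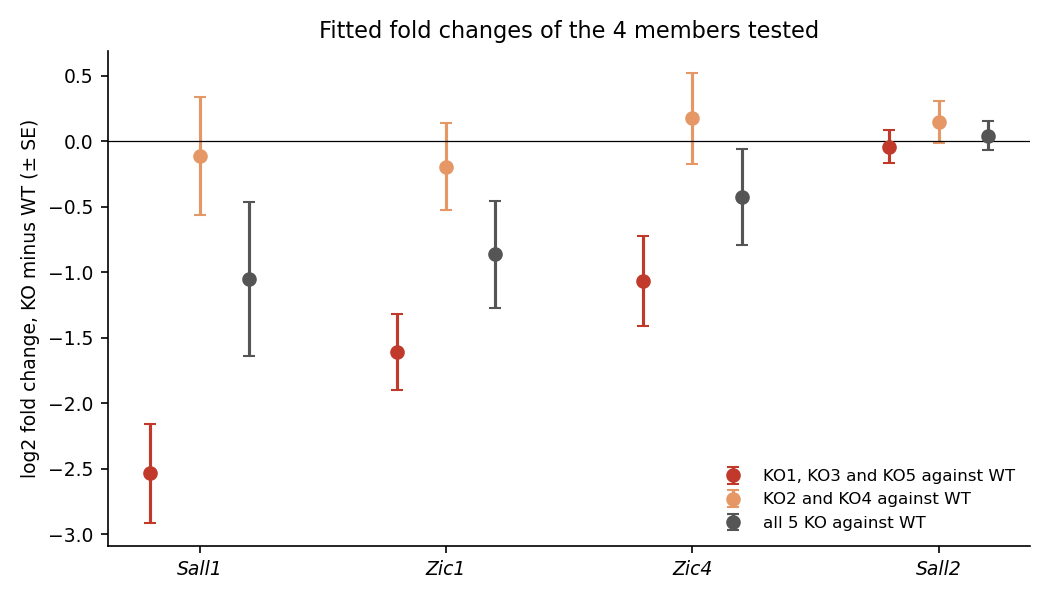
Fitted log2 fold change (y axis, KO minus WT, bars are ± 1 SE) of Sall1, Zic1, Zic4 and Sall2 (x axis) in 3 contrasts that share the 4 WT mice: KO1, KO3 and KO5, KO2 and KO4, and all 5 KO. Sall1, Zic1 and Zic4 fall in that order in the first contrast (-2.54, -1.61 and -1.07), and the bars of Zic1 and Zic4 overlap, while all values of the second lie within 0.20 of 0.

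Within the pair on chromosome 9, the share of Zic4 in the counts on Zic1 and Zic4 does not depend on library size. In WT it was 11.7%, 12.3%, 14.2% and 11.8% in WT1 to WT4. In KO1 it was 11.8% (exact 95% interval 6.23% to 19.6%), in KO3 17.1% (11.0% to 24.7%) and in KO5 25% (14.7% to 37.9%). KO1 therefore had the share of WT while both genes were low, and KO5, with the lowest Zic1, had the largest share of Zic4. The share was 19.2% (13.6% to 25.9%) in KO2 and 13.5% (10.3% to 17.2%) in KO4. KO2, KO3 and KO5 lay above every WT mouse, but the interval of each overlapped those of all 4 WT mice. The intervals cover counting error only, since amplified reads are not independent molecules.

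**Figure D4:**
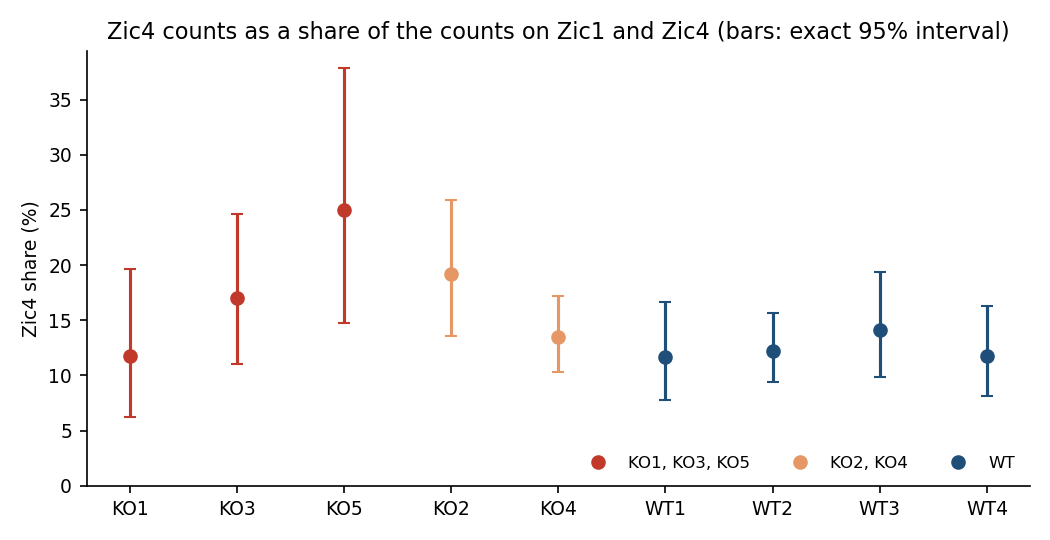
Counts on Zic4 as a percent of those on Zic1 and Zic4 together (y axis, from 0) in each mouse (x axis), with exact 95% binomial intervals as bars. The 4 WT mice sit between 11.7% and 14.2%, KO1 beside them at 11.8%, and KO5 highest at 25% with the widest interval, since it rests on 60 counts.

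The mice also differ in Xist, the X-inactivation transcript, and in Y-linked genes, and this division crosses the genotypes. KO3 and KO5 had more than 100 CPM of Xist, as did WT3 and WT4, and the other 5 mice had at most 3.23 CPM and high Y-linked levels. Among the mice with high Xist, Sall1 averaged 0.271 CPM in KO3 and KO5 and 1.25 CPM in WT3 and WT4. Among those with low Xist, KO1 had 0.376 CPM against a mean of 2.34 CPM in WT1 and WT2. For Zic1 the corresponding means were 2.54 and 7.08 CPM, and 2.82 and 8.95 CPM. For Zic4 they were 0.631 and 1.05 CPM, and 0.376 and 1.23 CPM. These values include those that chose the members and are a description.

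The genes whose log2 CPM was most like that of Sall1 over the 9 mice, among 21734 others tested, were Fryl (Pearson r = 0.97), Zic1 (0.95), Gm26559 (0.91), Gm13517 (0.90) and Lrrtm3 (0.90). For Zic1 they were Sall1 (0.95), Fryl (0.94), Col20a1 (0.94), Saxo2 (0.93) and Slc52a3 (0.90). These lists depended on the setting: under the alternatives run as few as 1 of the 5 genes remained for Sall1 and 0 for Zic1. Likeness is not size: Fryl, at 29.3 CPM in KO5 and 33.5 CPM in WT2, spanned a far smaller range than Sall1. Col20a1, a collagen gene, ranged from 18.5 CPM in KO5 to 25.6 CPM in WT2. Zic4 ranked 18th in likeness to Zic1 (r = 0.86, Spearman rho = 0.87) and 35th in likeness to Sall1 (r = 0.82, rho = 0.80). Without KO1 and KO5, the mice farthest from the median of Zic1, r between Zic1 and Zic4 was 0.85. Sall2 had r = 0.30 for Sall1 (rank 3206) and 0.21 for Zic1 (rank 5748), and r fell to -0.09 and -0.15 without the 2 mice farthest from the median (KO3 and KO5 for Sall1, KO1 and KO5 for Zic1). Sall1 and Zic1 were chosen together for their low level in the same mice, so their own likeness is no finding, and the 9 points share 1 library each for both genes.

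Within 500 kb of Sall1 the annotation lists 12 other genes, of which 7 passed the filter and 4 had no count in any mouse. In KO1, KO3 and KO5 against WT their log2 fold changes lay between -0.27 and -0.02, against a median of -0.01 over all genes, of which 52.2% were below 0. The sign did not hold for 3 of the 7: Rps6-ps2 was at 0.19 with the replicate block, Gm5356 was above 0 in 5 of 17 alternatives, and Snx20 was at 0.0022 without KO5. Nod2, a bacterial sensor, had -0.27 (SE 0.21) and was the only one whose 3 mutant mice were all below WT, at 1.38, 1.45 and 1.44 CPM against 1.47 to 1.92 CPM. Snx20, a sorting nexin, had -0.18 (SE 0.27), Nkd1, an inhibitor of Wnt signalling, -0.13 (SE 0.11), and Cyld, a deubiquitinase, -0.10 (SE 0.12). The pseudogenes Gm6625, Rps6-ps2 and Gm5356 had -0.20 (SE 0.27), -0.05 (SE 0.16) and -0.02 (SE 0.19), and pseudogene counts can hold reads of their parent genes. Sall1, with these genes on both sides, was at -2.54.

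Around Zic1 and Zic4 the annotation lists 16 other genes within 500 kb, of which 7 had no count and 1 passed the filter. This was the pseudogene Gm5620, at 48.6 to 75.8 CPM over the mice, with a log2 fold change of 0.10 (SE 0.17). The pair therefore had no other neighbour in which a shared change could be seen. Gm37477, singled out after its values were seen because it lies inside Zic4 on the opposite strand, had 29 counts over the 9 mice, between 0 and 0.185 CPM. In KO2 and KO4 against WT the 8 neighbours tested lay between -0.24 (Gm5356, SE 0.23) and 0.09 (Gm5620, SE 0.17).

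**Figure D5:**
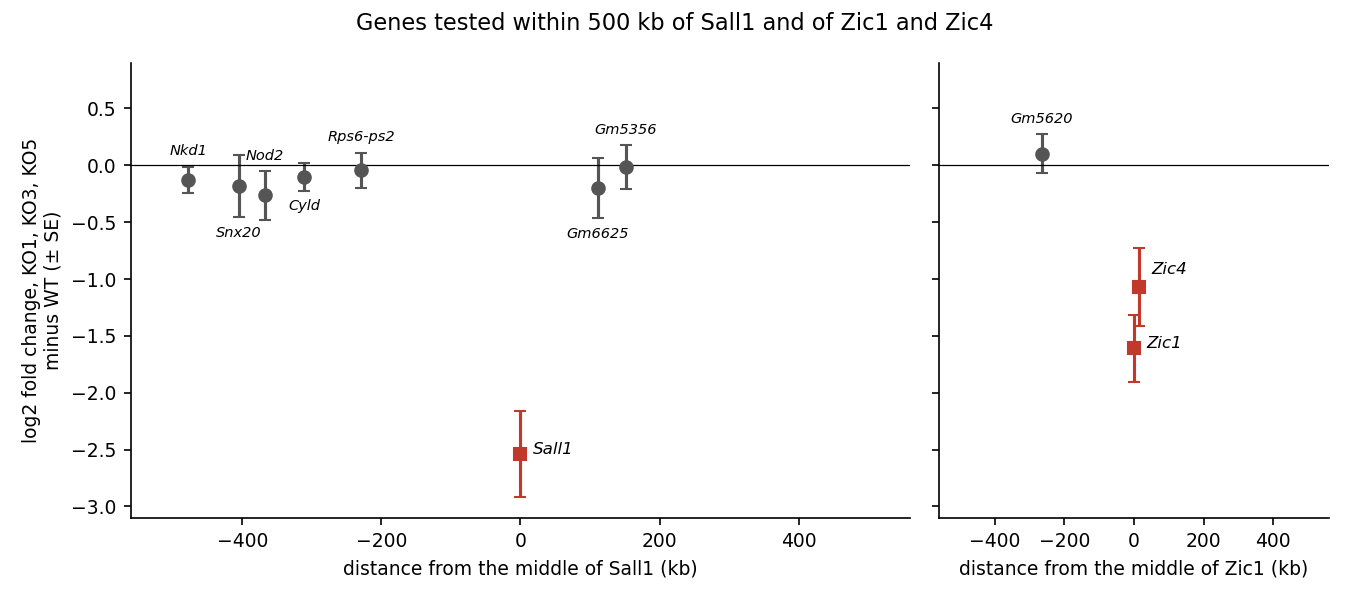
Log2 fold change in KO1, KO3 and KO5 against WT (y axis, bars are ± 1 SE) of the genes tested within 500 kb, against the distance in kb between gene middles (x axis), around Sall1 on the left and around Zic1 and Zic4 on the right. Red squares are the members at -2.54, -1.61 and -1.07, and grey points the neighbours, which stay between -0.27 and 0.10.

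Genes of the pathways in which these factors act were counted from fixed lists, beside 0.917% of genes lower and 1.16% higher at an unadjusted p below 0.05 over all genes in KO1, KO3 and KO5 against WT. No gene of any list given here had an FDR below 25% in the 3 contrasts. The 6 Gli and Glis factors, relatives of the Zic fingers, split into 3 lower and 3 higher, with a median log2 fold change of -0.01. Glis2 was at -0.05 (SE 0.17) and Gli1, a target and effector of Hedgehog signalling, at -0.10 (SE 0.18). Only Gli3, the main Hedgehog repressor in the limb, had a p below 0.05 (-0.26, SE 0.12, edgeR adjusted p = 1.00). Of 11 Hedgehog pathway genes 10 were tested, 7 lower and 3 higher, with 0 at p below 0.05. The co-receptors Gas1 and Cdon, the most abundant of them, were at -0.08 (SE 0.12) and -0.13 (SE 0.14).

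All 13 NuRD subunits, the partners of Sall proteins, were expressed and 0 had a p below 0.05, with a median of 0.01. The ATPase Chd4 was at -0.02 (SE 0.11) and the histone chaperone Rbbp4 at 0.00 (SE 0.10), and their summed level was 1495 to 1516 CPM in KO1, KO3 and KO5 and 1463 to 1557 CPM in WT. Of 16 limb position regulators, Hox genes and other factors that set place along the limb, 15 were tested, 10 lower and 5 higher, with a median of -0.21. Hoxc10 was at 0.13 (SE 0.11) and Hoxa10 at -0.06 (SE 0.17). At an unadjusted p below 0.05 stood Hoxa13 (-1.11, SE 0.35, edgeR adjusted p = 1.00) and Hoxa11 (-0.50, SE 0.16, edgeR adjusted p = 1.00), which pattern the distal and middle limb. In KO2 and KO4 they were at -0.18 and -0.03, with 0 of the 15 at p below 0.05. Gli3, Hoxa13 and Hoxa11 are named because they make up the counts, after their values were seen.

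Markers of other cell types that the dissected muscle could hold were summed per mouse beside these results. The adipocyte list was the one whose groups did not overlap, at 294 to 1142 CPM in KO1, KO3 and KO5 and 214 to 292 CPM in WT. Its 5 genes tested, of 7 in the list, were higher at an unadjusted p below 0.05, led by Fabp4, a fatty acid carrier, at 0.96 (SE 0.34, edgeR adjusted p = 1.00), and KO5, with the lowest Sall1 and Zic1, had the highest sum. The sum was 388 CPM in KO1 and 294 CPM in KO3, so KO3 was barely above WT. Adipoq, which encodes the adipocyte hormone adiponectin, was at 78.6 CPM in KO5, 9.01 CPM in KO1 and 0.157 CPM in KO3, against 0.0295 to 1.71 CPM in WT. KO3 was likewise within the WT range for Plin1, Cfd and Pparg, so the higher values of these genes came from KO5 and KO1. KO2 and KO4 summed to 189 and 408 CPM, of which Fabp4 made up 179 and 402 CPM. Pparg followed these sums, at 3.12 CPM in KO2 and 5.49 CPM in KO4 against 3.69 to 5.29 CPM in WT. For Adipoq, Plin1, Cfd and Cidec, KO2 was above every WT mouse and KO4 was within the WT range. Adipoq was at 2.82 CPM in KO2 and 0.289 CPM in KO4. The part of adipocytes in the lower Sall1, Zic1 and Zic4 was not tested.

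The lists below overlapped between the groups in their summed level. Fibroblast markers summed to 7922 to 9249 CPM in KO1, KO3 and KO5 and 5931 to 11115 CPM in WT, led by Col1a1, with Dpt and Twist2 higher at p below 0.05. Muscle progenitor markers summed to 102 to 119 CPM and 109 to 161 CPM, led by Myod1, which had the only p below 0.05 of that list (-0.41, SE 0.13, edgeR adjusted p = 1.00). Keratinocyte markers, led by Trp63, summed to 12.9 to 37.2 CPM and 16.3 to 63.1 CPM. Brown adipocyte markers, led by Cox8b, summed to 67.4 to 80.4 CPM and 65.2 to 109 CPM, with Kcnk3 higher at p below 0.05, and Ucp1, their defining gene, averaged 0.0272 CPM.

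Markers of neurons and kidney, where Sall and Zic genes are best known, were low. Neuronal markers, led by Stmn2, summed to 7.61 to 11.95 CPM in KO1, KO3 and KO5 and 9.48 to 11.0 CPM in WT, with Slc17a6 at 0 in every mouse. Kidney markers, led by Nphs1, summed to 4.63 to 5.60 CPM and 4.57 to 13.0 CPM, with Umod at 0 in every mouse. Cartilage markers, led by Col2a1, summed to 39.5 to 69.8 CPM and 50.6 to 78.0 CPM. KO4, whose Sall1 and Zic1 were in the WT range, stood apart at 229 CPM, while KO2 was below every WT mouse at 49.0 CPM. Tendon markers, led by Thbs4, summed to 546 to 764 CPM and 562 to 819 CPM, and all 6 were lower without a p below 0.05. Macrophage markers, led by Mrc1, summed to 118 to 168 CPM and 124 to 165 CPM, and endothelial markers, led by Cdh5, to 633 to 687 CPM and 572 to 669 CPM. In KO2 and KO4 against WT 3 of 7 cartilage genes, Col2a1, Col9a1 and Matn1, were higher at an unadjusted p below 0.05, as were 0.648% of all genes, and these high values came from KO4 alone. Col2a1 was at 133 CPM in KO4 and 24.9 CPM in KO2, against 23.4 to 35.7 CPM in WT. No other list given here held a gene at that p in this contrast.

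KO2 and KO4, which parted for Sall1 and Zic1, also stood outside the WT range on opposite sides for other lists. KO4 was above every WT mouse for tendon (1191 CPM), endothelial (747 CPM) and neuronal markers (14.2 CPM), as for cartilage and the adipocyte sum. KO2 was below every WT mouse for the same sums (540.5 CPM, 528 CPM and 8.25 CPM). The adipocyte sum was mostly Fabp4, and Adipoq, Plin1, Cfd and Cidec did not follow it in these mice. For muscle progenitor markers the order was turned, with 179 CPM in KO2 and 80.6 CPM in KO4, as it was for NuRD subunits, with 1591 and 1408 CPM. KO4 was also above WT for fibroblast (14289 CPM) and macrophage markers (179 CPM), where KO2 was within the WT range at 7655 and 141 CPM, and KO2 was below WT for keratinocyte markers at 13.5 CPM, with 25.2 CPM in KO4. The part of these cell types in the levels of Sall1, Zic1 and Zic4 in KO2 and KO4 was not tested.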

How the data were processed

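Gastrocnemius RNA was sequenced from 5 Shank3Δ11(-/-) and 4 Shank3(+/+) mice, 1 library per mouse. The deposited values are the authors' counts of reads per Ensembl gene, without normalization: the authors mapped reads to mm10 with HISAT2, kept concordant reads and counted with featureCounts. Annotation release, strandedness and handling of multiply mapped reads: not given in the sources used here. Symbols and positions from GENCODE M21 matched 55144 of 55471 IDs.

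The members and gene lists were chosen with earlier results of these data known. Genes were filtered with filterByExpr (minimum count 10, minimum total 15) and fitted in edgeR 4.0.16 (R 4.3.3) with TMM and a robust quasi-likelihood test, with p-values adjusted by Benjamini-Hochberg across the genes tested (FDR). Calls needed p below 0.05 and FDR below 25%. For KO2 and KO4, a 2-sided exact permutation test of mean log2 CPM (prior count 2) was added for the members. Limits from 0 counts take 3 counts over the group. Genes named were the 8 members, genes tested within 500 kb of Sall1, Zic1 or Zic4, the 5 genes most like Sall1 and Zic1 each, the 2 most abundant genes of each pathway list and 1 of each cell type list. Other list genes that are named (those at an unadjusted p below 0.05, defining markers at or near 0, and the adipocyte and cartilage genes) were chosen after their values were seen. One cell type list is not reported here. Alternatives were other filters and normalizations, DESeq2 1.42.0, limma-voom (limma 3.58.1), a non-robust fit, the replicate number as a block, the Y-linked level as a covariate, 1 fit with 3 groups, and each mouse left out. The fit was also run on simulated counts, and the outcome is not given here. No 2 libraries of a group agreed within sampling noise. Figures used matplotlib 3.10.9.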

Additional observations from a re-analysis of the deposited data

Results flagged for a closer look

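Sall3 in KO2 stood apart from the other Shank3Δ11(-/-) mice, with 0.238 CPM from 7 counts against 0 to 1 counts in the other 4. Its gap to the nearest of them took up 0.89 of the range of the group. Of 16 sets of mice looked at in this way, 1 stood out, and chance alone marks about 1 in 20.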

How the results depend on the processing

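In KO1, KO3 and KO5 against WT the log2 fold changes stayed below 0 under every alternative run for Sall1 (-2.71 to -2.25), Zic1 (-1.83 to -1.04) and Zic4 (-1.29 to -0.83). Sall1 could not be fitted where at least 10 counts in every mouse were required. The labels do not say that a replicate number marks a shared litter or day, and the correlations of same-numbered mice were 0.37, 0.05, 0.36 and 0.10, so the numbers were not taken as pairs. KO1, KO3 and KO4 correlated best with the WT mouse of their own number, and KO2 with WT1. A replicate block takes the fold change only from numbers held by both genotypes. In KO1, KO3 and KO5 against WT these were KO1, KO3, WT1 and WT3, and Zic1 was at -1.04. Genes called in this contrast numbered 1 with no filter on low counts, 6 with DESeq2, 9 with the replicate block and 0 to 15 without 1 mouse. Genes with p below 0.05 numbered 972 with no filter, 844 with the replicate block and 224 to 968 without 1 mouse. For KO2 and KO4, where no member passed the test, the sign changed without KO2 (Sall1 0.42, Zic1 0.21), without WT2 (Sall1 0.15, Zic1 0.06), and for Zic4 with the replicate block (-0.024) and without KO4 (-0.017). Calls there numbered 1 with limma-voom, 7 with the replicate block, 2 with the Y-linked covariate, 0 with 3 groups in 1 fit and 1 to 13 without 1 mouse. Genes with p below 0.05 numbered 742 with no filter, 472 with the Y-linked covariate and 204 to 1858 without 1 mouse. With all 5 mutant mice, calls numbered 7 with DESeq2, 2 with the replicate block and 0 to 7 without 1 mouse, and genes with p below 0.05 numbered 1082 with no filter and 300 to 745 without 1 mouse. Of the 5 genes most like Sall1, 1 remained by Spearman rho and 1 over the 7 mice without KO2 and KO4. For Zic1 these numbers were 2 and 0. For KO2 and KO4, leaving out 1 mouse gave -1.02 to 0.42 for Sall1, -0.76 to 0.21 for Zic1 and -0.017 to 0.42 for Zic4. A fit without KO2 or KO4 leaves a lone mutant mouse, assumed to vary like WT. The cause of these shifts was not tested.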
